A study of Homo sapiens with 7 samples.

Results

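Prelamin A processing was addressed in this series by 2 routes, and the arrays of those routes were compared here directly. One array held RNA from human dermal fibroblasts that overexpressed both prelamin A and the protease ZMPSTE24, and the other held RNA from fibroblasts that overexpressed prelamin A and were treated with a farnesyltransferase inhibitor (FTI, L-744832). These are 2 of the 7 arrays of the series, and 12722 genes were compared. The remaining 5 arrays were prelamin A alone, progerin with FTI, progerin alone, and 2 controls. All 7 were of 1 strain of primary dermal fibroblasts from a healthy individual, harvested at passage 10, and in the paper the proteins were introduced with lentiviruses. FTI was given at 10 nM for 48 h, whereas ZMPSTE24 was overexpressed together with prelamin A, so the route of treatment and its duration cannot be told apart. The protocol names DMSO as the vehicle, and none of the array labels names it. The title of the FTI array leaves prelamin A out, while its source and treatment labels name it. The paper describes 2 strains with duplicate cultures, whereas the labels name 1 strain for all arrays and 1 array for every condition other than the control.

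Prelamin A is the precursor of lamin A, a filament protein of the nuclear lamina. The cysteine of its C-terminal CAAX motif is farnesylated, the last residues are removed, the new end is methylated, and ZMPSTE24 then cuts off the farnesylated tail to release mature lamin A. Excess ZMPSTE24 therefore acts at the last step of the pathway, and FTI blocks the first, so that unfarnesylated precursor is made. FTI also acts on other farnesylated proteins, among them RAS proteins and B-type lamins. The arrays measured transcripts, not the lamin proteins. The brightest LMNA probe set read 9488 units with ZMPSTE24 and 9814 with FTI, against 8498 with prelamin A alone and 9300 and 14029 on the controls. It read 16289 with progerin and 15240 with progerin and FTI. No array labelled as overexpressing prelamin A was above both controls at this probe set. Its log2 difference was -0.05, and those of 4 other LMNA probe sets ranged from -0.95 to -0.20. The single ZMPSTE24 probe set read 5779 with ZMPSTE24 and 5180 with FTI (log2 difference 0.16), against 6120 with prelamin A alone and 4841 and 4973 on the controls. The array labelled as overexpressing ZMPSTE24 was thus not the highest of the 7 for this transcript. The sources used here do not say whether these probes can read the introduced sequences, so the labels were not tested by them.

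Values are MAS 5.0 signals, and the median signal of all probe sets lay between 64.9 and 77.0 on the 7 arrays. A probe set entered if it maps to 1 gene and reached 100 units on any of the 7 arrays, and each gene was read at its brightest probe set by the mean of the arrays. The difference between arrays is log2(signal + 16) with ZMPSTE24 minus the same with FTI, a scale that understates the change of dim genes. Each route had 1 array, so no difference between them has a replicate check, and no test is given for single genes. The 2 controls are the only replicates, and their difference (control 1 minus control 2) is printed beside the values. The 10 fibroblast markers of the list used all had a signal of at least 100 on both arrays, with summed signals of 235585 with ZMPSTE24 and 224254 with FTI. Of 6 smooth muscle markers 4 reached 100 on both arrays, with summed signals of 17592 and 22349 on the ZMPSTE24 and FTI arrays. Of 5 keratinocyte, 6 endothelial, 5 melanocyte and 4 leukocyte markers, 1 or 2 of each list reached 100 on each of the 2 arrays. Of 6 markers of embryonic kidney cells, the usual producers of lentivirus, 4 did. The summed signals of the 6 were 4480 with ZMPSTE24 and 4433 with FTI, against 5238 and 5105 on the controls. CDH2 alone gave 3665 and 3437 on the ZMPSTE24 and FTI arrays. The part of these marker differences in the results below was not tested. The 3' to 5' ratio of β-actin was 1.5 with ZMPSTE24 and 1.26 with FTI, against 1.24 and 1.06 on the controls.

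The 2 routes left 842 genes (6.62%) more than 2-fold apart. Of these, 409 (3.21%) were higher and 433 (3.40%) lower with ZMPSTE24 than with FTI. The largest differences were in ID1 and ID3, targets of bone morphogenetic protein (BMP) signaling, which were lower with ZMPSTE24, and in ADH1B, an alcohol dehydrogenase, which was higher. Interferon response genes and genes of DNA replication lay on the side of ZMPSTE24, and mitotic genes were slightly on the side of FTI. The spread of the difference over genes (SD 0.53) was smaller than that between the controls (SD 0.62), which were more than 2-fold apart in 1180 genes, 631 (4.96%) higher and 549 (4.32%) lower on control 1. Of the 842 genes, 336 higher (2.64%) and 370 lower (2.91%) differed by more between the routes than between the controls, and 252 were also more than 2-fold apart between the controls. Among all 21 pairs of arrays, this pair had the 3rd fewest genes more than 2-fold apart. Many of the 842 genes were dim on 1 of the arrays. With a signal of at least 100 on both, 184 genes were higher and 148 lower among 10760. Where a called gene had other probe sets, their median difference had the same sign for 120 of 140 higher genes (85.7%) and 106 of 122 lower genes (86.9%), compared with 65.2% of all genes with other probe sets. A limma fit in which the controls gave the only residual degree of freedom found 226 higher and 273 lower genes at a fold over 2 and an unadjusted p under 0.05, and 0 genes at an adjusted p under 0.05.

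**Figure D1:**
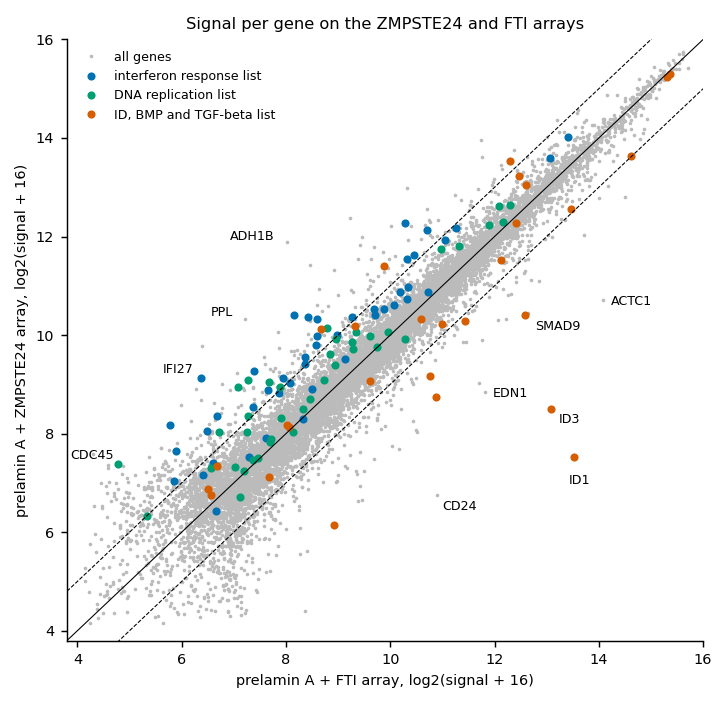
Signal of each of the 12722 genes on the ZMPSTE24 array (vertical axis) and the FTI array (horizontal axis), both as log2(signal + 16), with members of 3 gene lists coloured, the solid line at equal signal and the dashed lines at 2-fold. ID1 and ID3 lie farthest below the lower dashed line, and interferon response genes lie mostly above the solid line.

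The ID proteins dimerise with basic helix-loop-helix factors and keep them from DNA, and their genes are switched on by BMP receptors through SMAD proteins. ID1 (chr20:31605289-31606510 in GRCh38.p14) read 168 units with ZMPSTE24 and 11807 with FTI, and 14766 with prelamin A alone, 182 with progerin and FTI, 171 with progerin, and 430 and 888 on the controls. The ZMPSTE24 array was therefore below both controls and beside the progerin arrays, while the FTI array remained near prelamin A alone. The difference was -6.00 (64.2-fold), against -1.02 between the controls. ID3 (chr1:23557926-23559501) was also far lower with ZMPSTE24 than with FTI and below both controls, but above the progerin arrays, at 348 with ZMPSTE24, 8607 with FTI, 12826 with prelamin A alone, 269 and 219 on the progerin arrays with and without FTI, and 1186 and 2294 on the controls, a difference of -4.57. ID4 read 54.9 with ZMPSTE24 and 469 with FTI, 634 with prelamin A alone, and 72.3 and 72.7 on the controls (difference -2.78). Its signal with ZMPSTE24 was below 100, so the size of its difference depends on the pseudocount (-3.07 with 1 and -2.17 with 64). ID2, the brightest member, fell just short of 2-fold, with 12618 and 25133 units on the ZMPSTE24 and FTI arrays, a difference of -0.99.

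The same division was seen in the SMAD proteins and antagonists of the pathway. SMAD9, a SMAD that BMP receptors phosphorylate, read 1335 with ZMPSTE24, 6101 with FTI, 5690 with prelamin A alone, and 878 and 702 on the controls, a difference of -2.18 that was -2.59 at its second probe set. The inhibitory SMAD genes were also lower, SMAD7 at 563 with ZMPSTE24 and 1725 with FTI (-1.59), and SMAD6 at 1227 and 2740 on those arrays (-1.15, against 1.10 between the controls). NOG, which encodes the secreted BMP antagonist noggin, read 412 with ZMPSTE24, 1856 with FTI, 1225 with prelamin A alone, and 63.4 and 57.4 on the controls, a difference of -2.13. Unlike ID1, it stayed well above both controls on both arrays. ATOH8, a basic helix-loop-helix factor that is not on the list, read 189 and 1129 on the ZMPSTE24 and FTI arrays, with 1751 with prelamin A alone (-2.48). Its 2 other probe sets differed by -1.89 and -0.35. Of 28 measured genes of ID proteins and the BMP and TGF-β pathways, 7 (25%) were more than 2-fold lower and 3 (10.7%) higher with ZMPSTE24, compared with 3.40% and 3.21% of all genes. All 7 differed by more than the controls did, as did 1 of the 3 higher genes, the BMP family ligand GDF5, at 1102 with ZMPSTE24 and 390 with FTI (1.46), against 125 and 109 on the controls. The other two were INHBB, an activin subunit (1.52), and the co-receptor TGFBR3 (1.23), which were apart by 2.48 and 1.35 between the controls. The median over the list was -0.20, compared with -0.01 for all genes, and -0.41 where the mean signal or that on both arrays had to reach 100. Members of other roles, such as the receptors BMPR2 (-0.61) and TGFBR2 (-0.14) and the antagonist GREM1 (-0.05), differed less than 2-fold. A GC-rich SMAD element (GGCGCC, a palindrome) was searched in promoter windows from 250 bases before to 50 bases after the start. It was in a window of 9 of 26 list members (34.6%) and 36.2% of all genes, and in 0 of the 6 lower members that had a window. Sequence outside the windows was not searched, so these counts do not show whether the genes lack such an element.

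**Figure D2:**
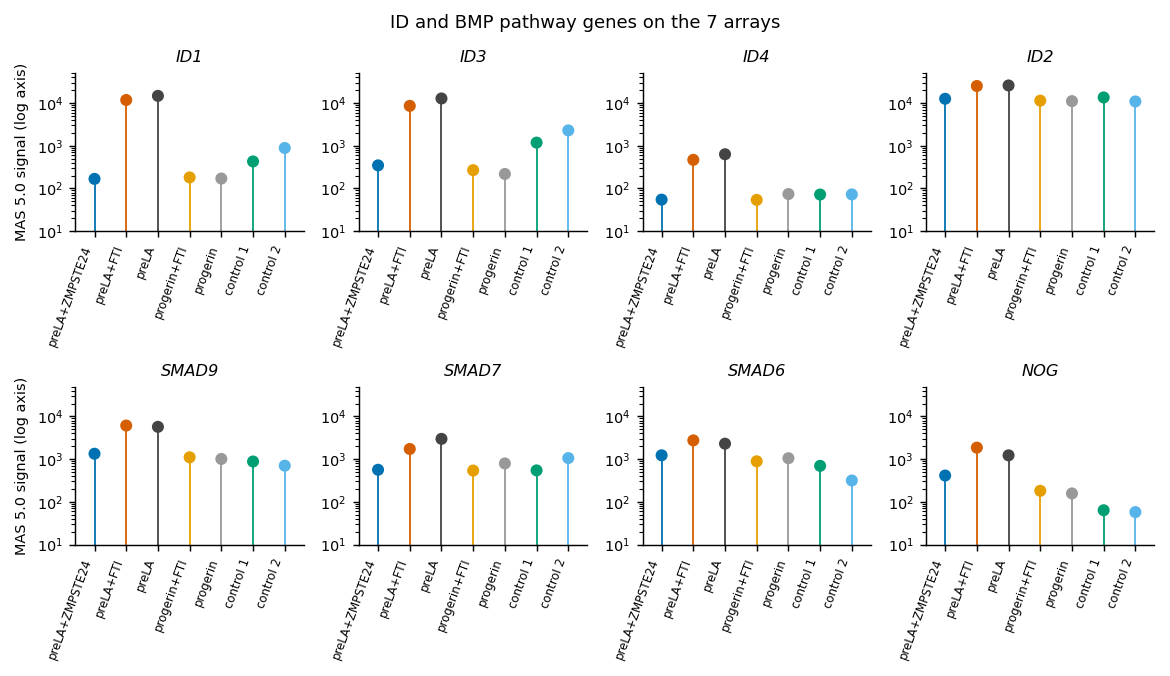
Signal (vertical log axis, MAS 5.0 units) of 8 ID and BMP pathway genes on each of the 7 arrays (horizontal axis), 1 point an array, preLA being prelamin A. ID1 and ID3 read 168 and 348 with ZMPSTE24, and 11807 and 8607 with FTI.

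Further genes with large differences were lower with ZMPSTE24, and their functions varied. ACTC1, the cardiac α-actin gene (chr15:34790230-34795549), read 1661 with ZMPSTE24 and 17384 with FTI, against 11224 with prelamin A alone and 1638 and 1027 on the controls, a difference of -3.38. EDN1, which encodes the vasoconstrictor endothelin-1, read 441 with ZMPSTE24, 3606 with FTI, 2731 with prelamin A alone, and 226 and 229 on the controls (-2.99). For both genes the FTI array lay above prelamin A alone, and the ZMPSTE24 array was within 2-fold of control 1. ACTC1 was the only one of 28 measured contractile and SRF target genes more than 2-fold apart (3.57%, near the 3.40% of all genes), and 21 of the 28 were below 0, with a median of -0.24. TAGLN, an actin-binding protein of smooth muscle, read 16162 with ZMPSTE24 and 28263 with FTI (-0.81), against 11774 with prelamin A alone and 23490 and 27426 on the controls. The surface glycoprotein gene CD24 read 92 with ZMPSTE24 and 1880 with FTI (-4.13), and its other 5 probe sets differed by -3.81 to -2.76. CSF2RB, a shared cytokine receptor chain, read 5.15 and 313 on those arrays (-3.96), so its ZMPSTE24 value was among the dimmest signals.

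Matrix genes lay on both sides, and those of largest difference were lower with ZMPSTE24. COMP, a cartilage matrix protein, read 84.4 with ZMPSTE24, 686 with FTI, 1979 with prelamin A alone, and 83 and 41 on the controls (-2.81). ELN, the elastin gene, read 32.8 with ZMPSTE24, 322 with FTI, 843 with prelamin A alone, and 215 and 534 on the controls (-2.79), and its second probe set differed by -0.82. ACAN, which encodes the proteoglycan aggrecan, read 244 and 1436 on the ZMPSTE24 and FTI arrays and 1642 and 1467 on the controls (-2.48, with -2.88 to -0.10 at 3 other probe sets). With ZMPSTE24, COMP was at its control level, whereas ELN and ACAN were below theirs. In the list of 37 proteoglycan, hyaluronan and elastic fibre genes 4 (10.8%) were lower and 4 (10.8%) higher by more than 2-fold. The shares over all genes were 3.40% and 3.21%. Of each 4, 3 differed by more than the controls did, and the list median was 0.00. Of 41 adhesive glycoproteins and integrins 5 (12.2%) were lower and 1 (2.44%) higher, compared with 3.40% and 3.21% of all genes, and 4 of the 5 were farther apart than the controls. Those 5 were COMP, POSTN (periostin, -1.59), ITGA8 (an integrin subunit, -1.14), the laminin chain LAMB1 (-1.06) and the syndecan SDC1 (-1.06, against -1.41 between the controls). The 2 other probe sets of POSTN differed by -1.43 and 0.38, and the second of LAMB1 by -0.88. POSTN read 917 with ZMPSTE24 and 2783 with FTI, both far under the 10121 and 23772 of the controls. Among 43 collagens and collagen enzymes, 2 (4.65%) were higher and 2 (4.65%) lower, near the shares over all genes, with a median of 0.08.

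Of 30 homeobox factors, 20 were below 0 (median -0.29), with 1 more than 2-fold lower (3.33%, near the 3.40% of all genes) and 0 higher. The lower gene was PRRX2, a factor of mesenchymal cells, at 505 with ZMPSTE24, 3307 with FTI, and 1278 and 2309 on the controls (-2.67). DLX2, a homeobox gene outside the list, read 82.9 and 652 with ZMPSTE24 and FTI (-2.76, and -1.03 at its second probe set). Of 24 neuronal genes 4 (16.7%) were lower and 2 (8.33%) higher, compared with 3.40% and 3.21% of all genes. Their median was -0.22, against 0.36 between the controls. SYT1, the calcium sensor of synaptic vesicles, read 254 with ZMPSTE24 and 1427 with FTI, against 466 with prelamin A alone and 128 and 73.5 on the controls (-2.42, and -2.12 at its second probe set). DCLK1, a kinase that binds microtubules, read 1262 and 4735 on the ZMPSTE24 and FTI arrays and 1779 with prelamin A alone (-1.89, with -1.32 to -0.74 at 3 other probe sets). For SYT1 and DCLK1 it was the FTI array that stood apart from the other prelamin A arrays. PODXL, a sialylated surface protein, did so too, with 1371 with ZMPSTE24, 6376 with FTI and 1914 with prelamin A alone (-2.20).

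Among genes higher with ZMPSTE24, ADH1B (chr4:99304971-99321401) read 3776 with ZMPSTE24 and 244 with FTI, against 276 with prelamin A alone, 1613 with progerin and FTI, 2857 with progerin, and 213 and 122 on the controls. The difference was 3.87 (14.6-fold), and its other 2 probe sets differed by 3.22 and 3.32. Its FTI signal was close to prelamin A alone and the controls, and its ZMPSTE24 signal was close to progerin. GUCY1A2, a subunit of the nitric oxide receptor, read 858 and 68.2 on the ZMPSTE24 and FTI arrays, 59.9 with prelamin A alone, 479 with progerin, and 501 and 229 on the controls (3.38). PPL, which encodes periplakin, a linker of keratin to the cell border, read 1276 with ZMPSTE24, 132 with FTI, 131 with prelamin A alone, 1548 with progerin, and 438 and 302 on the controls (3.12). TMEM158, a membrane protein, read 8138 and 1266 with ZMPSTE24 and FTI, and 9091 with progerin (2.67). The long non-coding RNA LINC00968 read 4033 and 691 on those 2 arrays and 2784 with progerin (2.52). In each of these genes the ZMPSTE24 array was nearer progerin than the FTI array was.

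Other genes with large differences had varied functions. CRABP2, a carrier of retinoic acid, read 3629 with ZMPSTE24, 673 with FTI, 1563 with prelamin A alone, and 8489 and 7306 on the controls (2.40), so that FTI was the farther from the controls. RXFP1, a receptor for relaxin, read 1932 and 382 with ZMPSTE24 and FTI, and 137 and 44.1 on the controls (2.29), so that here ZMPSTE24 was the farther. DKK2, a secreted modulator of WNT receptors, read 1538 with ZMPSTE24, 372 with FTI, 478 with prelamin A alone, and 143 and 300 on the controls (2.00). Of 26 secreted WNT factors and targets it was the only one more than 2-fold higher (3.85%), and 1 was lower (3.85%). Both shares were near the 3.21% and 3.40% of all genes. CCN4, a matricellular protein, read 2953 and 654 with ZMPSTE24 and FTI, and 4814 and 6791 on the controls (2.15, with 0.95 to 2.07 at 3 other probe sets). EFEMP1, a fibulin of the matrix, read 461 with ZMPSTE24, 116 with FTI, and 5882 and 3705 on the controls (1.85). LOXL4, which crosslinks collagen and elastin, read 3290 with ZMPSTE24, 909 with FTI, and 4227 and 2827 on the controls (1.84). For these 3 matrix genes the control levels lay above the FTI array, and only LOXL4 was at its control level with ZMPSTE24.

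Interferon response genes formed the list with the most members apart. These genes are switched on by type I interferon or by sensing of nucleic acid in the cytosol, and most act against viruses. Of 45 measured members, 23 (51.1%) were more than 2-fold higher with ZMPSTE24 and 0 were lower, compared with 3.21% and 3.40% of all genes, and 43 were above 0, with a median of 1.02. The same list also separated the controls. It had a median of 0.85 there, with 20 members more than 2-fold higher on control 1, and 14 of the 23 differed by more between the routes than between the controls. The ZMPSTE24 array had a median of 0.93 over prelamin A alone, and the FTI array -0.03, so the list lay above prelamin A alone on the ZMPSTE24 array and level with it on the FTI array. IFI27, a mitochondrial protein of the response (chr14:94105894-94116690), read 544 with ZMPSTE24, 67.2 with FTI, 9.36 with prelamin A alone, and 180 and 59.3 on the controls (2.75, against 1.38 between the controls). RSAD2, the antiviral enzyme viperin, read 273 with ZMPSTE24, 38.9 with FTI, 22.3 with prelamin A alone, and 103 and 14.2 on the controls (2.40, against 1.98). For IFI27 and RSAD2 the ZMPSTE24 array was the highest of the 7. IFI6 read 1340 and 267 with ZMPSTE24 and FTI, and 1545 and 310 on the controls, so its difference of 2.26 was no larger than the 2.26 between the controls to 2 decimals. MX1, a GTPase that traps viral particles, was more than 2-fold higher with ZMPSTE24 (1298 and 327 on the 2 arrays, 1.94) but farther apart on the controls (2415 and 409, 2.52). PARP14, an ADP-ribosyltransferase, read 311 with ZMPSTE24, 86.3 with FTI, and 312 and 308 on the controls (1.67, against 0.02), so there the FTI array was the one away from the controls.

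The promoters of these genes are shown because the members differed together. RefSeq windows from 250 bases before to 50 bases after the start were searched on both strands for a core of the interferon-stimulated response element, GAAA repeated after any 2 bases. Among 37 members with a window, 25 (67.6%) held it, and so did 14 of 19 members more than 2-fold higher (73.7%), near the list share. Over all 10352 genes with a window the share was 4.09%. The list was made of interferon genes, so an excess over all genes may follow from its choice. The 3 matched windows of largest difference follow, in GRCh38.p14 and read 5′ to 3′ along the gene, with matches on either strand in capitals. For a gene with several starts the first window with a match is given.
IFI27, chr14:94110486-94110785, plus strand: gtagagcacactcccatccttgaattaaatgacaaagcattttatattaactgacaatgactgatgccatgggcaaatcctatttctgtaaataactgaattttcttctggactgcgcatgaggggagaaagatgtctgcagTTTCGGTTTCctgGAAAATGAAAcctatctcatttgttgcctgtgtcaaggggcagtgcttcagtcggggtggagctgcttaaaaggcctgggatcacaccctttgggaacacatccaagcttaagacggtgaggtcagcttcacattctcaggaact
RSAD2, chr2:6877527-6877826, plus strand: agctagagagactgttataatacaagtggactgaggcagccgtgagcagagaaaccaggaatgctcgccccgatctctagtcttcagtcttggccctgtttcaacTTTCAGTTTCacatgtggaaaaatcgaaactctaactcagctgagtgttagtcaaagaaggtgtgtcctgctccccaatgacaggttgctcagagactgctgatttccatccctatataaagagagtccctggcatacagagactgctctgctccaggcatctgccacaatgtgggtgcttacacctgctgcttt
IFI6, chr1:27672143-27672442, minus strand: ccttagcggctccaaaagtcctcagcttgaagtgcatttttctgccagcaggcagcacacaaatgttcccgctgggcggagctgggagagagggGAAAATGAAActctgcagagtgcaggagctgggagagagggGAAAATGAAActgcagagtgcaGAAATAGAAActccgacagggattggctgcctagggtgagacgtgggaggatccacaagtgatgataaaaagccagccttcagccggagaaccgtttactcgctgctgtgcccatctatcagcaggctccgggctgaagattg
IFI27 has 2 matches, 1 on each strand, RSAD2 has 1 and IFI6 has 3. A match describes these letters only, and whether a factor binds there was not measured.

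Genes of DNA replication were higher and mitotic genes slightly lower with ZMPSTE24. Replication genes are made ready before and during S phase under E2F factors, and mitotic genes peak later in the cycle. Of 39 measured replication genes, 8 (20.5%) were more than 2-fold higher, 0 were lower and 35 were above 0, with a median of 0.43 and of 0.32 between the controls. All 8 differed by more than the controls did. CDC45, a part of the replicative helicase, read 152 with ZMPSTE24, 11.3 with FTI, 36 with prelamin A alone, and 243 and 170 on the controls (2.62). The FTI signal was very low, and the difference was 3.64 with a pseudocount of 1 and 1.52 with 64. CCNE2, the cyclin that starts S phase with CDK2, read 480 with ZMPSTE24, 119 with FTI, 177 with prelamin A alone, and 472 and 215 on the controls (1.87). CDC6, which loads the helicase at origins, read 525 with ZMPSTE24, 139 with FTI, 207 with prelamin A alone, and 513 and 280 on the controls (1.80, and 1.93 at its second probe set). The origin factor GINS2 (1.37, but -0.54 at its second probe set), the helicase subunits MCM2 (1.36) and MCM5 (1.06), the DNA ligase LIG1 (1.32) and the polymerase subunit POLA1 (1.09) completed the group. MCM2 read 1115 with ZMPSTE24 and 424 with FTI, against 605 with prelamin A alone and 1075 and 866 on the controls. In CDC6, CCNE2 and MCM2 the ZMPSTE24 array was above both controls and the FTI array was below prelamin A alone. Over the list the ZMPSTE24 array had a median of 0.46 over prelamin A alone and the FTI array -0.18.

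Of 55 mitotic genes, 39 were below 0, with a median of -0.31. Only 1 (1.82%) was more than 2-fold higher and 1 (1.82%) lower, compared with 3.21% and 3.40% of all genes. Between the controls the median was 0.60, and 13 of the 55 genes differed by more between the routes than between the controls. The lower gene was CDC20, an activator of the anaphase-promoting complex, at 285 with ZMPSTE24 and 617 with FTI (-1.07), against 412 with prelamin A alone and 582 and 643 on the controls. The higher gene was CDC25A, a phosphatase that acts at entry into S phase, at 129 and 46.4 on those arrays (1.21). CCNB1, the mitotic cyclin, read 1845 with ZMPSTE24, 3164 with FTI, 1960 with prelamin A alone, and 3031 and 1490 on the controls (-0.77). The list median relative to prelamin A alone was 0.15 with ZMPSTE24 and 0.41 with FTI, so both arrays were above prelamin A in mitotic genes, and the ZMPSTE24 array alone in replication genes. The 2 lists therefore differed in opposite directions between the routes, and both were higher on control 1 than on control 2.

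The promoter windows of replication genes were searched in the same way for a core of the E2F site (TTTNNCGC). It was in 21 of 35 members with a window (60%), compared with 12.6% of all genes, an excess that may follow from the choice of list. Of the 6 members that had a window and were more than 2-fold higher, 5 held it (83.3%). These 6 are too few to set apart from the list. The 3 matched windows of largest difference are shown with matches in capitals.
CDC6, chr17:40287629-40287928, plus strand: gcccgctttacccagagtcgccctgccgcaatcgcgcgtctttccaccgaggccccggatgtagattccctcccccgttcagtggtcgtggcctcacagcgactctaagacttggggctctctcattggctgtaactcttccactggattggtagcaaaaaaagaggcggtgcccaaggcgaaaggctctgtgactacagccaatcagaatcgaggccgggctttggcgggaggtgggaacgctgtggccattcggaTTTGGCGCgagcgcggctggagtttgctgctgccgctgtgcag
GINS2, chr16:85688905-85689204, minus strand: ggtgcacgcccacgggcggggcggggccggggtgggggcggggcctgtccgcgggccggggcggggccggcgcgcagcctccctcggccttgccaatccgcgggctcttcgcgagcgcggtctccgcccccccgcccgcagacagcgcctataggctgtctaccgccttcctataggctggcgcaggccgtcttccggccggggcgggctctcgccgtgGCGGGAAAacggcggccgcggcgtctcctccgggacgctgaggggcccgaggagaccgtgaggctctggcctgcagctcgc
MCM2, chr3:127598161-127598460, plus strand: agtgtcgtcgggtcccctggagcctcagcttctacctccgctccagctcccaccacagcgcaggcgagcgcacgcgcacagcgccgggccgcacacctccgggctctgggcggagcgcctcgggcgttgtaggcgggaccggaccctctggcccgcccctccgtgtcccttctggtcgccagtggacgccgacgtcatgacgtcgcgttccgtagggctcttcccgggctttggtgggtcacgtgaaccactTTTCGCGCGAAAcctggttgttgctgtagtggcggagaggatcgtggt
The match in GINS2 is on the opposite strand of the gene, and the 2 matches of MCM2 overlap on opposite strands.

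**Figure D3:**
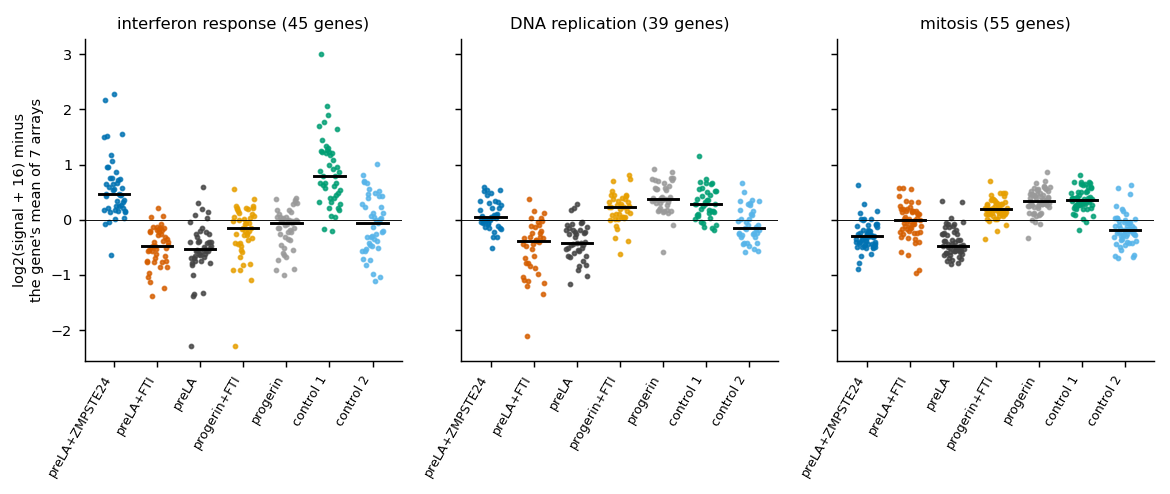
Members of the interferon response, DNA replication and mitosis lists on each of the 7 arrays (horizontal axis), each point a gene's log2(signal + 16) minus its mean over the 7 arrays (vertical axis) and each bar the list median. Interferon response genes are higher on the ZMPSTE24 array and control 1 than on the FTI and prelamin A arrays.

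Cytokines, chemokines and growth factors that senescent cells secrete lay on both sides. Among 36 measured genes, 7 (19.4%) were more than 2-fold higher with ZMPSTE24 and 4 (11.1%) lower, compared with 3.21% and 3.40% of all genes. The median was 0.14, and 5 of the 7 and 3 of the 4 were farther apart than the controls. CCL26, a chemokine for eosinophils, read 2530 with ZMPSTE24, 467 with FTI, 545 with prelamin A alone, and 127 and 86.5 on the controls (2.40). CCL2, a chemokine for monocytes, read 4742 and 1012 with ZMPSTE24 and FTI (2.21), and 2742 and 631 on the controls, nearly as far apart. IGFBP5, which binds insulin-like growth factors, read 15943 with ZMPSTE24, 3400 with FTI, 3441 with prelamin A alone, and 1367 and 161 on the controls (2.22, against 2.96). IL6 read 2213 and 771 with ZMPSTE24 and FTI, both well under the 10434 and 7979 of the controls (1.5). Of the lower genes, the growth factor NRG1 read 291 with ZMPSTE24 and 1360 with FTI (-2.16, but -1.06 to -0.47 at 5 other probe sets). The chemokine CXCL12 read 4166 and 13419 on those arrays, against 15605 and 14275 on the controls (-1.68). With prelamin A alone CXCL12 read 10527, and the ZMPSTE24 array was farther from that (-1.33) than the FTI array was (0.35). Of the 2 routes, only FTI was near the control level.

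Of the metalloproteinase genes, MMP3, MMP10 and MMP12 read far less with both routes than with prelamin A alone, though not all were at control levels. MMP3, a stromelysin, read 1166 with ZMPSTE24 and 2381 with FTI, against 23076 with prelamin A alone and 179 and 2773 on the controls (-1.02). MMP10 read 1.94 and 33.8 on those 2 arrays and 3024 with prelamin A alone (-1.47, both below the minimum of 100), and MMP12 read 159 and 341, against 3291 with prelamin A alone and 15 and 94.1 on the controls (-1.03). The collagenase MMP1 did not follow them, at 30039 with ZMPSTE24, 18167 with FTI, 33449 with prelamin A alone, and 12175 and 15930 on the controls (0.73). Of 27 metalloproteinases and inhibitors 5 (18.5%) were lower and 3 (11.1%) higher with ZMPSTE24, compared with 3.40% and 3.21% of all genes. MMP3, MMP10 (-1.54 between the controls) and MMP12 were farther apart between the controls. The other 2 of the 5 lower genes differed by more than the controls did. They were MMP17 (7.87 with ZMPSTE24 and 125 with FTI, -2.57) and ADAMTS9 (20.4 and 86.1, -1.49, but 1.26 at its second probe set). Under the alternatives 1 to 6 list members were lower and 1 to 3 higher, the fewest lower with a pseudocount of 64 and the fewest higher with the mean over probe sets. The 3 higher genes were MMP27 (1.99) and the ADAMTS proteases ADAMTS6 (1.17) and ADAMTS12 (1.15). Other probe sets were less than 2-fold apart, at 0.17 and 0.74 for ADAMTS6 and 0.49 for ADAMTS12. In prostaglandin synthesis, PTGS2 (cyclooxygenase 2) read 1424 with ZMPSTE24, 398 with FTI, 1940 with prelamin A alone, and 6043 and 8181 on the controls (1.80). PLA2G4A, the phospholipase that frees arachidonic acid for it, read 1507 and 679 with ZMPSTE24 and FTI, and 1221 and 1282 on the controls (1.13). Both were lower with FTI than on the other prelamin A arrays. Of 33 guidance genes, 4 (12.1%) were higher and 2 (6.06%) lower, compared with 3.21% and 3.40% of all genes, and 2 of each were farther apart than the controls. The secreted SEMA3A (1.51, against 1.81 between the controls), SLIT2 (1.14), SEMA3C (1.11) and NTN1 (1.11, against -1.44 between the controls) were higher with ZMPSTE24, while NTNG1 (-1.37) and EPHA5 (-1.02) were lower.

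Both routes act on the pathway of prenylation and CAAX processing. Of its 16 measured genes, 0 were more than 2-fold higher and 1 (6.25%) was lower. Over all genes the shares were 3.21% and 3.40%, so 16 genes are too few to set this list apart. The lower gene was MVD, an enzyme of the mevalonate pathway, at 8.6 with ZMPSTE24 and 101 with FTI (-2.25). It was near the signal minimum and apart by -1.53 between the controls. The farnesyltransferase subunit FNTA, the drug's target complex, read 6593 and 7099 with ZMPSTE24 and FTI (-0.11), and its partner FNTB was dim, at 34.9 and 50.1. ICMT, which methylates the processed end, read 3514 and 2630 on those arrays (0.42), and RCE1, which removes the last residues, read 85.6 and 120 (-0.42). Of 33 genes whose proteins are farnesylated, 1 (3.03%) was higher, near the 3.21% of all genes, and 0 were lower. The 1 was GBP1, which is also on the interferon list (1.23, with 2978 and 1260 units on the ZMPSTE24 and FTI arrays). In the nuclear lamina and envelope 1 of 23 genes (4.35%, near the share over all genes) was higher, SYNE3, at 104 and 36.1 (1.20). FOXQ1, a forkhead factor, read 969 with ZMPSTE24 and 1225 with FTI (-0.33, against -1.07 between the controls), and 7676 with prelamin A alone.

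Several lists had 0 members more than 2-fold apart, compared with 6.62% of all genes. They were cytosolic ribosomal proteins (52 genes, median 0.03), the mitochondrial respiratory chain (45 genes, -0.01), autophagy and lysosome (36 genes, 0.13), and CDK inhibitors and D-type cyclins (15 genes, -0.13). The 6.62% includes genes dim on 1 array. With a signal of at least 100 on both arrays, 184 genes were higher and 148 lower among 10760, a smaller share. In lists of these sizes a count of 0 therefore says little, and least in the last. Of 30 p53 targets 1 (3.33%, near the 3.21% of all genes) was higher, PMAIP1 (1.21). The cell cycle inhibitor CDKN1A read 8859 with ZMPSTE24 and 11820 with FTI (-0.42), both above the 3789 and 5658 of the controls. Of 24 genes of cholesterol synthesis and uptake only MVD was more than 2-fold apart (4.17%, compared with 6.62% of all genes). Of 35 genes of the unfolded protein response 1 (2.86%, near the 3.21% of all genes) was higher, ATF3 (1.53). The list median of 0.17 had the opposite sign to the -0.62 between the controls.

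**Figure D4:**
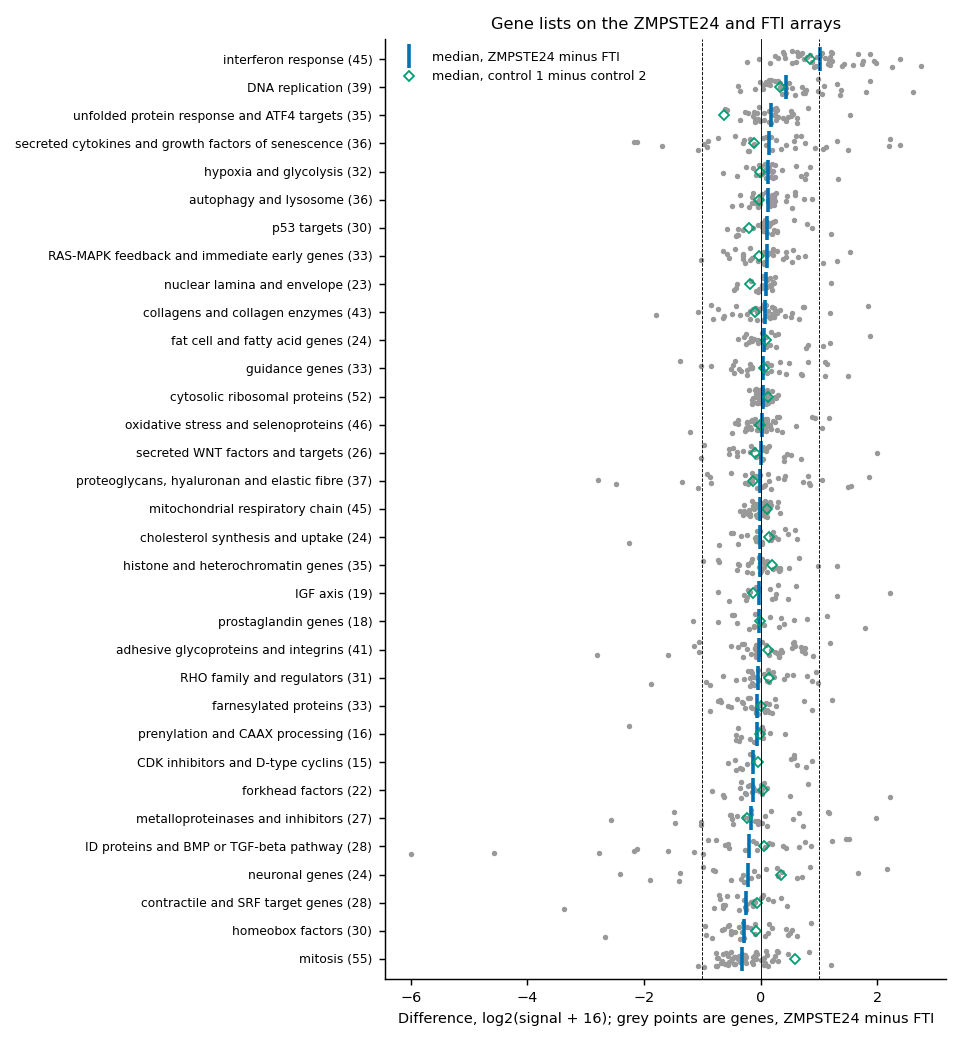
Difference of each list member, ZMPSTE24 minus FTI on log2(signal + 16) (horizontal axis, grey points), for all gene lists other than the cell markers (vertical axis, number of measured genes in brackets), with blue bars at the list medians and green diamonds at the medians of control 1 minus control 2. The interferon response has the highest median, 1.02, and its control diamond is at 0.85.

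The 2 routes were also set against prelamin A alone and the controls. For this, 676 genes were taken that were more than 2-fold higher with prelamin A than on both controls, and 402 that were lower. The prelamin A array chose these genes, so any other array will tend to lie nearer the controls. An excess over the shares of all genes follows from that choice, so only the 2 treated arrays are set against each other. Over all genes the FTI array was the nearer of the 2 to prelamin A, with 664 genes more than 2-fold apart, against 1077 for the ZMPSTE24 array. The part of this in the values below was not tested. Of the 676 genes, 219 (32.4%) were more than 2-fold lower than prelamin A on the ZMPSTE24 array and 118 (17.5%) on the FTI array, compared with 4.62% and 2.93% of all genes. There were 75 genes lower on both arrays and 414 on neither. Their median over the control mean was 1.19 with ZMPSTE24 and 1.51 with FTI, against 1.83 with prelamin A alone. Of the 402 lower genes, 139 (34.6%) were more than 2-fold higher than prelamin A on the ZMPSTE24 array and 81 (20.1%) on the FTI array, compared with 3.84% and 2.29% of all genes, and their medians were -0.83 with ZMPSTE24, -1.22 with FTI and -1.58 with prelamin A alone. The ZMPSTE24 array was the nearer of the 2 to the control mean for 440 of the 676 genes (65.1%) and 259 of the 402 (64.4%), compared with 52.3% of all genes. Without control 1, the genes were chosen again against control 2 alone. The nearer shares were then 59.2% and 55.7%. The shares back by more than 2-fold were 21.9% and 12.9% for ZMPSTE24 and FTI among the higher genes, and 18.1% and 11.7% among the lower genes. Set against each other, the ZMPSTE24 array was more than 2-fold below the FTI array for 19.7% of the 676 genes, ID1, ID3, ACTC1 and EDN1 among them, and more than 2-fold above it for 4.73%. For the 402 genes it was above the FTI array for 16.7% and below it for 4.98%. Over all genes it was below the FTI array for 3.40% and above it for 3.21%.

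**Figure D5:**
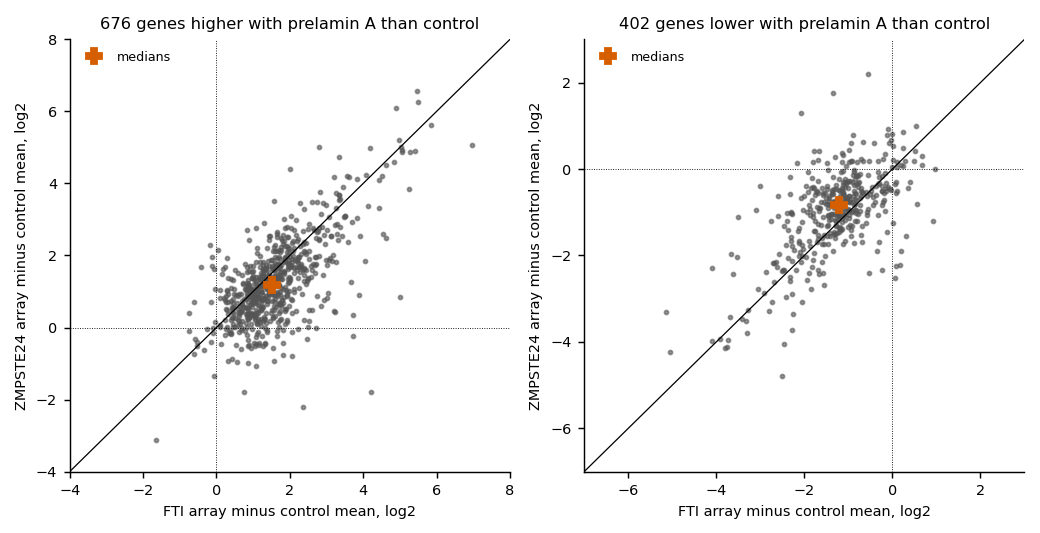
Genes more than 2-fold higher (left, 676 genes) or lower (right, 402 genes) with prelamin A than on both controls, each point 1 gene placed by the ZMPSTE24 array (vertical axis) and the FTI array (horizontal axis) minus the control mean, in log2 units, with a diagonal at equal values and dotted lines at the control mean. The median points are at 1.19 with ZMPSTE24 and 1.51 with FTI on the left, and at -0.83 and -1.22 on the right.

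The other arrays, which entered the signal filter but not the difference between the routes, placed the 842 genes unevenly. This comparison was chosen after the values were seen. The progerin array was nearer the ZMPSTE24 than the FTI array for 292 of the 409 higher genes (71.4%) and 230 of the 433 lower genes (53.1%), compared with 53.4% of all genes. Prelamin A alone was nearer the ZMPSTE24 array for 40.8% of the higher genes and 24.2% of the lower genes, compared with 44.3% of all. For the lower genes prelamin A alone was thus mostly nearer the FTI array, as in ID1 and ID3, and 273 of the 433 were more than 2-fold away from prelamin A on the ZMPSTE24 array, with 101 on the FTI array. For higher genes these numbers were 186 and 129 of the 409, and over all 12722 genes 1077 and 664. The 842 genes were chosen as apart between these 2 arrays, so an excess over all genes follows in part from that choice. Control 1 was nearer ZMPSTE24 for 60.6% of the higher genes and 56.6% of the lower genes, compared with 53.3% of all genes. Control 2 was nearer it for 50.9% and 51.3%, near the 51.4% of all genes.

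FTI was also given to progerin cells, which gives a second reading of the drug on arrays outside the difference between the routes. Those arrays did enter the signal filter and the choice of probe set. Their median signals were 64.9 with progerin and FTI and 70.3 with progerin. Of the 409 genes higher with ZMPSTE24 than with FTI, 263 (64.3%) were lower with FTI than without it in progerin cells, with a median of -0.15, compared with 51.8% and -0.01 for all genes. Of these, 25 (6.11%) were more than 2-fold lower and 12 (2.93%) higher there, compared with 1.74% and 0.896% of all genes. Of the 433 genes lower with ZMPSTE24, 238 (55%) were below 0 with FTI in progerin cells, with a median of -0.07, and 38 (8.78%) were more than 2-fold lower and 22 (5.08%) higher there. In both groups, then, more genes than in the whole set were over 2-fold apart in each direction, and the share over 2-fold lower with FTI was larger in the group lower with ZMPSTE24. Of the genes higher with ZMPSTE24, PPL was lower with FTI in progerin cells too, at 844 with progerin and FTI and 1548 with progerin (-0.86), and ADH1B another, at 1613 and 2857 on those arrays (-0.82). GUCY1A2 and LINC00968, at -0.10 and -0.26, differed little with FTI in progerin cells, as did ID1 (0.08) and ACTC1 (0.31).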

How the data were processed

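Total RNA was hybridised to Affymetrix U133 Plus 2.0 arrays. The authors deposited 1 table of intensity values, the MAS 5.0 signal of 54675 probe sets on 7 arrays, after background correction, summarisation and scaling. The 2% trimmed mean was 500 on every array. The study's S-score comparisons were not repeated. The platform annotation gives 41091 probe sets 1 gene, 1801 several and 11721 none, 62 were controls, and 41037 were matched by gene ID to RefSeq (GRCh38.p14). Genes of the Y chromosome were left out. Differences of log2(signal + 16) were computed in Python 3.11.15. The limma 3.58.1 fit (R 4.3.3) had 6 conditions, with 1 residual and 3.50 prior degrees of freedom, assumes that lone arrays vary like the controls, and was checked on simulated data. The spread between 2 control arrays may be technical, and precision is limited by the number of arrays.

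The members and the gene lists were chosen with earlier results of these data known. Named genes were LMNA, ZMPSTE24, FOXQ1 and the prenylation enzymes, the 15 of largest difference each way (over all genes, and with signal of at least 100 on both arrays) among those over 2-fold and farther apart than the controls, and the 6 of largest difference in each list. Others were named after their values were seen. Alternatives were other pseudocounts, normalizations, filters, probe set rules and thresholds, and leaving out each control.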

Additional observations from a re-analysis of the deposited data

Results flagged for a closer look

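The mitosis list moved in opposite directions with FTI in the 2 lamin lines. Its median, FTI minus untreated on log2(signal + 16), was 0.41 in prelamin A cells and -0.12 in progerin cells, over 55 genes. Between the 2 controls the median of the same list was 0.60, larger in size than either value. Each line had 1 array with and 1 without FTI, so the difference between the lines was not tested.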

How the results depend on the processing

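No paired analysis was possible because each condition other than the control had 1 array. Of 2218 values of 258 named genes under the alternatives, 2063 moved by less than the SD of the gene's controls, 155 by more and 0 changed sign. The counts of genes higher and lower with ZMPSTE24 (409 and 433) became 222 and 208 with a pseudocount of 64, 1131 and 1202 without the filter, 261 and 223 where the mean signal had to reach 100, 184 and 150 when the probe set was chosen among those with a signal of at least 100 on both arrays, 1065 and 1120 at 1.5-fold, 48 and 70 at 4-fold, 738 and 864 over every kept probe set, 226 and 273 with the unadjusted p from limma, and 0 and 0 with its adjusted p (at any fold, 230 and 273 had an unadjusted p under 0.05). The share of higher genes among those called lay between 46.1% and 55.1% under the scalings, filters and pseudocounts. The SD over genes was 0.63 with a pseudocount of 1 or no filter, and 0.42 with a pseudocount of 64 or the filter on both arrays.

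Of genes higher with prelamin A, the share back by more than 2-fold was 38.5% for ZMPSTE24 and 27.4% for FTI with no filter, 28.4% and 13.3% with the mean filter, 28.4% and 12.3% with the filter on either array and 24.5% and 11.1% with that on both, and 13.4% for FTI with a pseudocount of 64. Of genes lower with prelamin A it was 39.7% and 26.2% for ZMPSTE24 and FTI with a pseudocount of 1, and 26.2% and 10.5% with 64, and for FTI it was 31.4% with no filter, 12.8% with the mean filter and 13.4% with the filter on both arrays. ZMPSTE24 was the nearer to control for 69.6%, 58.3%, 69.1% and 71.4% of these lower genes with a pseudocount of 64, no filter, the mean filter and the filter on both. Where 1 control was left out, the genes were chosen again by the other alone. The shares back then ranged from 21.9% to 31.8% (ZMPSTE24) and 12.9% to 17.2% (FTI) for higher genes and from 18.1% to 33.9% and 11.7% to 19% for lower genes. The nearer shares ranged from 59.2% to 63.2% and 55.7% to 63.9%. In progerin cells the share of higher genes lower with FTI was 58.1% with quantile normalization and 58.4% with no filter, and that of lower genes 50.1% with quantile normalization. With the filter on either array the 2 shares were 65.3% and 53.5%. The share over all genes is given for the main setting only. The causes were not tested. The numbers of members lower and higher with ZMPSTE24 ranged from 2 to 5 and 4 to 8 among secreted factors, 3 to 5 and 2 to 5 among proteoglycans, 3 to 5 and 1 among adhesive proteins, 3 to 5 and 1 to 2 among neuronal genes, 1 to 4 and 0 to 1 among homeobox factors, and 1 to 3 and 3 to 5 among guidance genes. The list medians kept their sign for the interferon response (0.82 to 1.04), DNA replication (0.39 to 0.45) and mitosis (-0.33 to -0.27). Differences of genes with a signal below 100 on 1 array depend on the pseudocount, and with 1 array a route no difference is separated from variation between cultures.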
